A study of Mus musculus with 24 samples.

Results

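Toll-like receptors are membrane proteins through which innate immune cells recognise microbial molecules. Those of the cell surface bind lipopeptides, lipopolysaccharide and flagellin, whereas those of the endosomes, which are carried there by the chaperone Unc93b1, bind RNA and DNA. In skin they are found mainly on macrophages, dendritic cells and keratinocytes, and in the spinal cord mainly on microglia and astrocytes. The 10 mouse genes described here were taken by symbol from the 22609 gene symbols of each count file, and not by their values. They comprise 5 surface receptors, Tlr1, Tlr2, Tlr4, Tlr5 and Tlr6, and 5 endosomal receptors, Tlr3, Tlr7, Tlr8, Tlr9 and Tlr13.

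The receptors were measured by RNA sequencing of skin punch biopsies of the injected hind paw, lumbar dorsal root ganglia of the same side (DRG, which hold the cell bodies of sensory neurons that reach the paw) and lumbar spinal cord from C57 males of 8 to 12 weeks. The study asked how these tissues respond when LTβR, the lymphotoxin beta receptor, which belongs to the same family as the receptors for tumour necrosis factor, is activated in the paw by an agonist antibody. Control mice had 10 µg of IgG injected into the hind paw, and their tissue was collected 24 h later. Day-1 mice had 1 injection of 10 µg of the LTβR agonist antibody, and day-6 mice had 2 such injections. The sample titles count 6 days from the first injection, whereas the design text places them after both injections, so the interval of the day-6 group is uncertain. Day 6 thus differed from control in the agent, the time and the number of injections, which cannot be told apart. Paw and DRG had all 3 groups and spinal cord had day 1 and day 6 alone, with 3 libraries in each of the 8 groups.

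Gene counts per library totalled 24228438 to 41037458 in paw, 21562694 to 34244912 in DRG and 15685843 to 26285770 in spinal cord. The tissues carried their own markers: 10 keratinocyte genes summed to between 46929.1 and 88363.9 CPM (counts scaled to a library of 1000000) in paw, 9 sensory neuron genes to between 4769.8 and 5934.0 CPM in DRG, and 4 astrocyte genes to between 3356.0 and 4240.9 CPM in spinal cord. Muscle in the samples varied widely within the groups. The 9 skeletal muscle genes summed to 184.7 CPM in paw control replicate 1 and to between 4446.7 and 29681.7 CPM in the other paw libraries. The paw groups overlapped, but the mean was 22054.6 CPM on day 1 and 10423.0 CPM on day 6. In DRG the sums were 23.06 to 4871.2 CPM in control, 31.25 to 5953.5 CPM on day 1 and 26.62 to 467.8 CPM on day 6. In bulk tissue, fewer cells of a type and less RNA per cell cannot be told apart. Nothing in the labels says that the libraries of a group came from different animals, and p-values reflect only how these libraries vary, which may be technical.

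The promoters of 8 of the 10 receptors were matched to RefSeq sequences of the mouse assembly GRCm38.p6, each covering 250 bases before the annotated start to 50 bases after it, and those of Tlr4 and Tlr7 were not among them. The 4 printed here belong to Tlr9, Tlr8 and Tlr13, those with the largest day-6 differences from control in paw among the endosomal receptors that have a RefSeq promoter, and to Tlr3, the endosomal receptor whose paw level was nearly the same in the 3 groups. Each is written 5′ to 3′ on the strand of its gene, and capitals mark the letters of 6 motifs searched on both strands. The motifs were an ETS core with the letters AGGAAG, an interferon response type, an NF-κB type, an AP-1 type with the letters TGANTCA, the box named CCAAT, and a TATA box with the letters TATAAA.
Tlr9, chr9:106222348-106222647, plus strand: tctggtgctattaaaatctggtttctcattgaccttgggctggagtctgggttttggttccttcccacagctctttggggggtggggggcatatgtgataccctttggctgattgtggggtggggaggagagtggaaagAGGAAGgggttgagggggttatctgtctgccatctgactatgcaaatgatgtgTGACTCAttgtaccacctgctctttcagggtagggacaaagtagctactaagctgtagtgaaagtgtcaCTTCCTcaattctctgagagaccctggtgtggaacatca
Tlr8, chrX:167264280-167264579, minus strand: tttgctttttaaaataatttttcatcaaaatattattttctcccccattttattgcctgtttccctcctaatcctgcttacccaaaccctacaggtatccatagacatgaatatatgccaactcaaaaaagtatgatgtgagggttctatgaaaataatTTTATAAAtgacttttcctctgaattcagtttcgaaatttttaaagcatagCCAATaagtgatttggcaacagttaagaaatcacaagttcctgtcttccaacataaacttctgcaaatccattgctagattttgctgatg
Tlr13, chrX:106143025-106143324, plus strand: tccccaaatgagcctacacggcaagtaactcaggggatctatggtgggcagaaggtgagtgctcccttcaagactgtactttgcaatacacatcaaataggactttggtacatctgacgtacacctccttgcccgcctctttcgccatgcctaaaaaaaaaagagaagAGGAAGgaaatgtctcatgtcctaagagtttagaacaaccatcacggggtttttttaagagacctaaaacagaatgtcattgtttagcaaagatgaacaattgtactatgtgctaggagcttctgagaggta
Tlr3, chr8:45410331-45410630, minus strand: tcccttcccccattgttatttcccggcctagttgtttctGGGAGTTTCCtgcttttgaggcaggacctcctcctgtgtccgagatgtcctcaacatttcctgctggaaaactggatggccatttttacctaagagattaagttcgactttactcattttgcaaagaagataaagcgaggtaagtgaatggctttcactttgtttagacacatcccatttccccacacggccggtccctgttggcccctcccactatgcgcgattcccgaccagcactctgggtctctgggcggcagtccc
The Tlr9 window held 2 ETS core matches and 1 AP-1 type match, and the Tlr13 window held 1 ETS core match. The Tlr8 window held 1 CCAAT match and 2 TATA matches that overlap each other, and the Tlr3 window held 1 NF-κB type match. The 8 genes have 10 windows, since Tlr1 and Tlr6 have 2 each, so the counts per gene that follow stand beside shares of single windows. An ETS core was found in 5 of the 8 receptor genes and in 35.4% of all 32851 promoter windows of the same length, and an NF-κB type match in 1 of the 8 genes and in 1.47% of all windows. The interferon response type was found in 1 of the 8 and 3.44% of all windows, the AP-1 type in 1 and 7.81%, the CCAAT box in 3 and 37.4%, and the TATA box in 2 and 13.6%. A match is a description of these letters, and binding to them was not measured.

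In the paw, the receptors for single-stranded RNA and for CpG DNA, Tlr7 and Tlr9, rose between the control group and day 6, and no surface receptor passed the edgeR test. DESeq2 called 6 receptors in that comparison, among them Tlr1 and Tlr2 of the surface, and 509 of all genes. Of the 10 receptors, 2 were called higher on day 6 than in control at an adjusted p under 0.05, both of them endosomal, and 0 lower, where 0.667% of the 15287 genes tested were called higher and 0.0392% lower. The 3 day-6 libraries lay above the 3 control libraries for 7 of the 10 receptors, against 8.22% of all genes tested. The 7 were Tlr1, Tlr2 and Tlr6 of the surface group and Tlr7, Tlr8, Tlr9 and Tlr13 of the endosomal group. The median log2 fold change was 1.54 over the 5 endosomal receptors and 0.92 over the 5 surface receptors, and -0.01 over all genes tested. The difference between the surface and the endosomal receptors was not tested. Markers of macrophages, which express many of these receptors, were also higher in the day-6 paws, with 20 genes at a median of 1.36 on the log2 scale, and their part in the result was not tested.

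**Figure D1:**
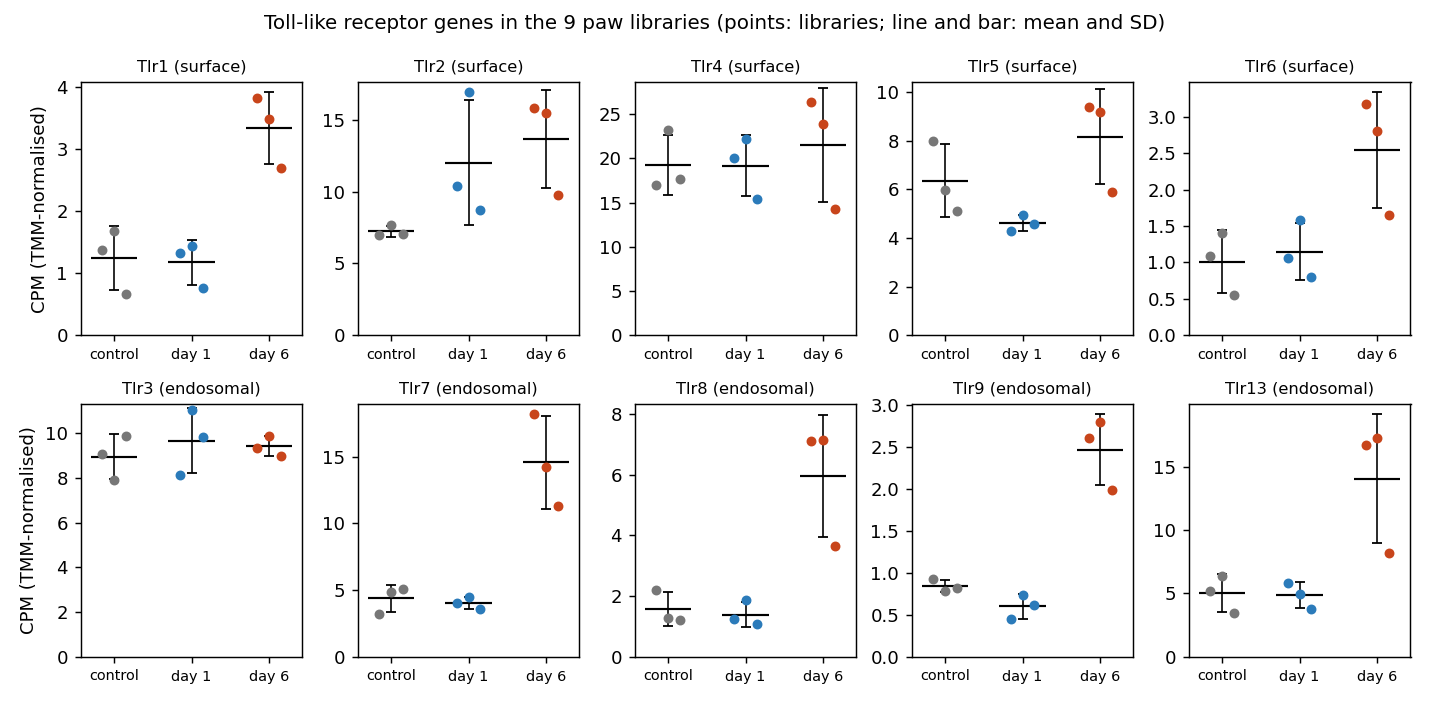
Levels of the 10 receptor genes in the 9 paw libraries, in TMM-normalised CPM on axes that start at 0, with 1 panel per gene. Points are libraries, lines are means and bars are SD (3 libraries per group). Tlr7 stands at 11.3 to 18.2 CPM on day 6 and at 3.22 to 5.07 CPM in control, while Tlr3 and Tlr4 overlap between the groups.

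Tlr7, at chrX:167304929-167330558 on the minus strand of GRCm38, recognises single-stranded RNA. It had 3.22, 4.85 and 5.07 CPM in the control paws, 4.02, 4.46 and 3.56 CPM on day 1, and 18.2, 14.2 and 11.3 CPM on day 6. The lowest day-6 library was above the highest library of the other 2 groups. The log2 fold change was 1.73 ± 0.23 (SE) on day 6 against control (edgeR quasi-likelihood test, Benjamini-Hochberg adjusted p = 0.0209) and 1.86 ± 0.23 on day 6 against day 1 (adjusted p = 0.0202).

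Tlr9, at chr9:106222598-106226883 on the plus strand, is the receptor for unmethylated CpG DNA. It was the least abundant endosomal receptor of the paw per kilobase. Its levels were 0.93, 0.78 and 0.83 CPM in control, 0.45, 0.74 and 0.61 CPM on day 1, and 2.60, 2.80 and 1.99 CPM on day 6. The day-1 libraries lay just below the control libraries and the day-6 libraries above both. On the log2 scale Tlr9 rose by 1.54 ± 0.26 on day 6 against control (edgeR, adjusted p = 0.0406) and by 2.04 ± 0.26 against day 1 (adjusted p = 0.0204). These values rest on 19 to 23 counts per control library and 64 to 123 counts per day-6 library.

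Tlr8 is a close relative of Tlr7 and lies near it, at chrX:167242696-167264329 on the minus strand. It had 2.22, 1.27 and 1.22 CPM in control, 1.24, 1.88 and 1.07 CPM on day 1, and 7.12, 7.13 and 3.63 CPM on day 6. Its day-6 libraries were above the 6 others. The log2 fold change against day 1 was 2.09 ± 0.37 and passed the threshold (edgeR, adjusted p = 0.0427), while that against control, 1.92 ± 0.37, did not (adjusted p = 0.0645). Tlr13, at chrX:106143204-106160493 on the plus strand, recognises bacterial ribosomal RNA in mice. It had 5.20, 6.42 and 3.46 CPM in control, 5.84, 4.93 and 3.79 CPM on day 1, and 16.7, 17.3 and 8.17 CPM on day 6. The groups did not overlap on day 6, but its log2 fold changes of 1.49 ± 0.33 against control and 1.53 ± 0.33 against day 1 missed the threshold (edgeR, adjusted p = 0.104 and 0.0752).

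Tlr3, the receptor for double-stranded RNA, differed from the other endosomal receptors in signalling through Ticam1 alone. Its levels were 9.06, 7.90 and 9.90 CPM in control, 8.14, 11.1 and 9.83 CPM on day 1, and 9.35, 9.90 and 9.01 CPM on day 6. The 3 groups overlapped, and the log2 fold change on day 6 against control was 0.07 ± 0.15 (edgeR, adjusted p = 0.952), with a sign that turned negative (-0.01) without control replicate 2. An antisense gene, Gm45542, overlaps Tlr3 on the other strand, and the strand setting of the counting is not given in the sources used here.

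Among the surface receptors, Tlr2, which forms the lipopeptide receptor together with Tlr1 or Tlr6, had 6.97, 7.69 and 7.07 CPM in control, 10.4, 17.0 and 8.72 CPM on day 1, and 15.8, 15.5 and 9.75 CPM on day 6. Both agonist groups lay above control. The log2 fold changes against control were 0.73 ± 0.27 on day 1 (edgeR, adjusted p = 0.421) and 0.92 ± 0.27 on day 6 (adjusted p = 0.232), and neither was called. Tlr2 was the 1 receptor with non-overlapping higher libraries on day 1.

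Tlr1 had 1.37, 1.69 and 0.67 CPM in control, 1.32, 1.44 and 0.77 CPM on day 1, and 3.83, 3.48 and 2.70 CPM on day 6. Tlr6 had 1.09, 1.40 and 0.55 CPM in control, 1.07, 1.58 and 0.80 CPM on day 1, and 3.17, 2.80 and 1.65 CPM on day 6. Both partners of Tlr2 were higher in the day-6 libraries than in the other 6. Their log2 fold changes against control were 1.43 ± 0.37 and 1.33 ± 0.41 (edgeR, adjusted p = 0.166 and 0.266). These 2 genes are neighbours on chromosome 5, and 454 windows of 50 bases, the read length, are shared by their exons, which is 13.6% of the windows of Tlr1 and 12.3% of those of Tlr6. Reads from shared windows can be lost or split in counting, so both levels are uncertain.

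Tlr4, the receptor for lipopolysaccharide, had 17.0, 23.2 and 17.7 CPM in control, 19.99, 22.1 and 15.4 CPM on day 1, and 26.3, 23.9 and 14.2 CPM on day 6. The groups overlapped, and its log2 fold change on day 6 against control was 0.16 ± 0.24 (edgeR, adjusted p = 0.924), turning to -0.01 without day-6 replicate 1. Tlr5, the flagellin receptor, had 8.01, 5.96 and 5.11 CPM in control, 4.30, 4.96 and 4.59 CPM on day 1, and 9.38, 9.20 and 5.90 CPM on day 6. Its day-6 libraries overlapped control and lay above day 1, with a log2 fold change against day 1 of 0.82 ± 0.23 that was not called (edgeR, adjusted p = 0.161).

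Against day 1, 3 of the 10 receptors were called higher on day 6, namely Tlr7, Tlr8 and Tlr9, and 0 lower, where 0.949% of all genes tested were called higher and 0.0785% lower. The 3 day-6 libraries lay above the 3 day-1 libraries for 7 receptors, against 12.7% of all genes. This comparison and that with control share the day-6 libraries. On day 1 itself, 0 receptors were called by edgeR, with 1 at an unadjusted p under 0.05 and 0 called by DESeq2, where 0.00654% of all genes were called higher and 0% lower, and 4.01% and 6.63% had an unadjusted p under 0.05. On day 1, 1 receptor lay wholly above control and 2, Tlr5 and Tlr9, wholly below it, against 6.4% and 8.6% of all genes.

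The calls depended on single libraries. On day 6 against control, 0 of the 10 receptors passed when paw control replicate 2, control replicate 3, day-6 replicate 1 or day-6 replicate 2 was left out, 1 passed without control replicate 1 and 4 without day-6 replicate 3. In the fit of only the control and day-6 groups 0 passed. In that fit and in the 4 left-out fits without a receptor called, 0 of all genes tested were called, so the loss was not particular to the receptors. Against day 1, 0 passed without day-1 replicate 1, day-1 replicate 3, day-6 replicate 1 or day-6 replicate 2, 2 without day-1 replicate 2 and 4 without day-6 replicate 3. In the 4 fits where 0 receptors passed, 0 of all genes passed too. The size of the differences moved less: with 1 library left out, the log2 fold change of Tlr7 on day 6 against control ranged from 1.54 to 1.89 with adjusted p of 0.0194 to 0.0845, and that of Tlr9 from 1.44 to 1.67 with adjusted p of 0.0416 to 0.183. DESeq2 called 6 receptors in each of the 2 comparisons, Tlr7, Tlr8, Tlr9, Tlr13 and Tlr1 in both, with Tlr2 against control and Tlr5 against day 1. It called 509 and 737 of all genes there, against 108 and 157 by edgeR.

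**Figure D2:**
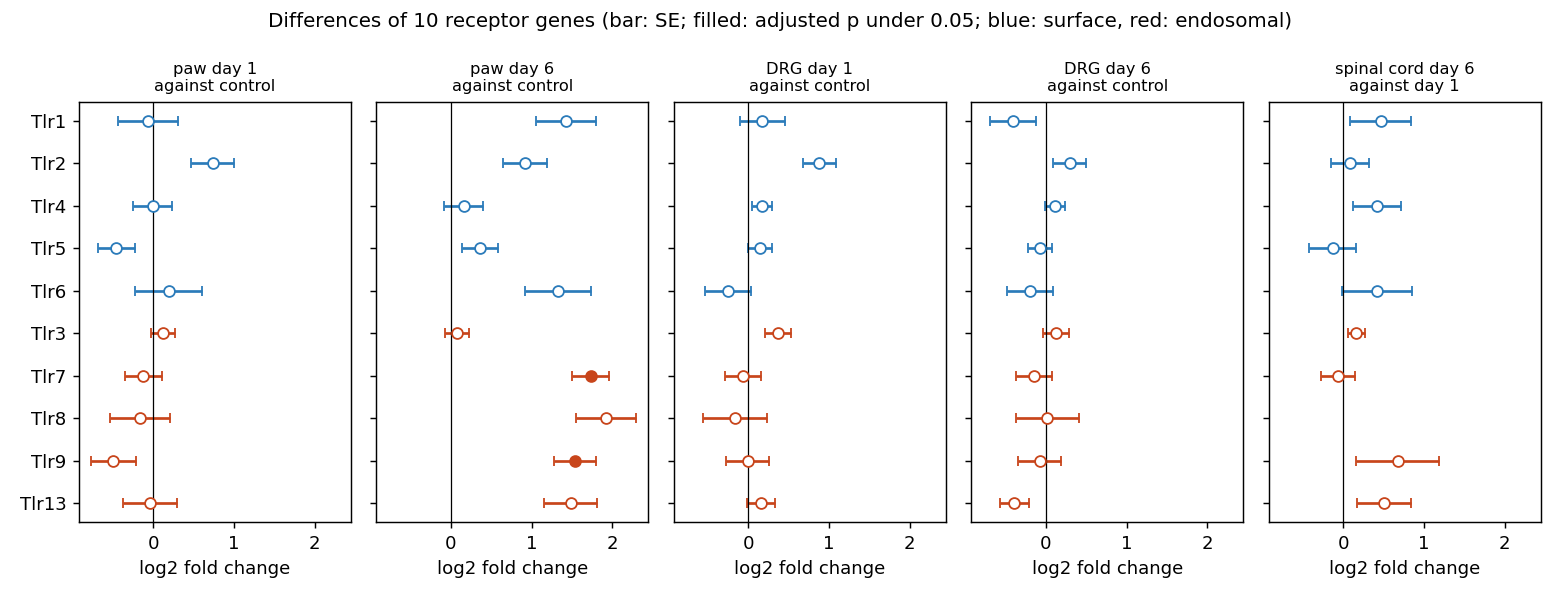
Log2 fold changes of the receptors in 5 comparisons, on a shared axis, with SE as bars, surface receptors in blue and endosomal receptors in red. Filled points have an adjusted p under 0.05, which holds for Tlr7 and Tlr9 in the paw on day 6 against control. Tlr8 is missing in the spinal cord, where it was filtered out.

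In the DRG the receptors showed no called change. Of the 10, 0 were called by edgeR on day 1 against control, with 2 at an unadjusted p under 0.05 and 1 called by DESeq2, where 0.162% of the 15461 genes tested were called higher and 0.00647% lower, and 4.66% and 2.74% had an unadjusted p under 0.05. Tlr2 lay apart most clearly, with 2.54, 2.80 and 2.45 CPM in control, 4.30, 6.29 and 3.71 CPM on day 1, and 3.47, 3.41 and 2.67 CPM on day 6. Its day-1 libraries were above the 6 others. The log2 fold change on day 1 was 0.88 ± 0.20 (edgeR, adjusted p = 0.215), and Tlr2 was the receptor that DESeq2 called. DESeq2 called 131 of all genes in this comparison, against 26 by edgeR. On day 1, 2 receptors lay wholly above control, Tlr2 and Tlr4, against 7.55% of all genes.

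Tlr3 was the most abundant receptor in DRG, with 10.5, 9.28 and 9.01 CPM in control, 12.4, 15.2 and 9.32 CPM on day 1, and 11.6, 9.83 and 9.82 CPM on day 6, and its groups overlapped. Tlr7 had 2.21, 2.95 and 3.51 CPM in control, 2.45, 2.62 and 3.27 CPM on day 1, and 2.21, 2.26 and 3.39 CPM on day 6. Tlr9 had 1.69, 1.57 and 1.71 CPM in control, 1.14, 2.25 and 1.53 CPM on day 1, and 1.21, 1.84 and 1.66 CPM on day 6. For both genes the 3 groups overlapped.

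Tlr13 had 2.25, 2.62 and 3.19 CPM in control, 2.80, 3.22 and 3.03 CPM on day 1, and 2.27, 1.80 and 2.09 CPM on day 6. The day-6 libraries of DRG lay below the day-1 libraries, at -0.55 ± 0.18 on the log2 scale (edgeR, adjusted p = 0.52). Tlr2 also lay lower on day 6 than on day 1 (-0.58 ± 0.20, adjusted p = 0.583). Between these days 0 receptors were called by edgeR, with 2 at an unadjusted p under 0.05 and 0 called by DESeq2, where 0.0129% of genes were called higher and 0.0906% lower, and 2.8% and 4.03% had an unadjusted p under 0.05. The day-6 libraries lay wholly below the day-1 libraries for 3 receptors, Tlr2, Tlr5 and Tlr13, against 6.47% of all genes. On day 6 against control, 0 receptors and 0% of all genes were called by edgeR, with 1 receptor, Tlr13, at an unadjusted p under 0.05 and 0 receptors called by DESeq2, where 1.88% of genes were higher and 1.72% lower at that unadjusted p.

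In the spinal cord, where day 6 could be compared with day 1 alone, 9 of the 10 receptors passed the filter on low counts. By edgeR 0 of them and 0% of the 15096 genes tested were called, with 0 receptors at an unadjusted p under 0.05 and 0 called by DESeq2, and 5.39% of genes were higher and 4.31% lower at that unadjusted p. The smallest adjusted p among the receptors was 0.605, for Tlr3. Tlr3 had 20.9, 18.2 and 19.3 CPM on day 1 and 22.4, 23.7 and 19.1 CPM on day 6, and the groups overlapped. Tlr7 had 2.75, 3.06 and 2.41 CPM on day 1 and 3.05, 2.06 and 2.78 CPM on day 6. Tlr9 had 0.46, 1.02 and 0.42 CPM on day 1 and 1.55, 0.49 and 1.01 CPM on day 6, and Tlr13 had 1.87, 1.92 and 1.66 CPM on day 1 and 3.64, 1.40 and 2.72 CPM on day 6. Day-6 replicate 1 was the highest of the 6 libraries for Tlr1, Tlr2, Tlr9 and Tlr13. That library also held the most of 7 B cell genes, 16.2 CPM against 1.03 to 3.10 CPM in the other 5, and of 9 neutrophil genes, 449.9 CPM against 35.3 to 120.3 CPM. It also had the highest sums of 20 macrophage genes, 563.4 CPM against 346.1 to 430.4 CPM, of 7 meningeal genes, 548.1 CPM against 146.6 to 495.4 CPM, and of 6 fibroblast genes, 1325.6 CPM against 301.3 to 1163.5 CPM. Their part in these levels was not tested. Tlr8 had 0, 1 and 1 counts on day 1 and 2, 2 and 5 counts on day 6, and was not tested within this tissue.

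The change of Tlr7 between control and day 6 was larger in paw than in DRG. The difference between the tissues, tested as an interaction term over 18 libraries, was 1.88 ± 0.34 on the log2 scale (edgeR, adjusted p = 0.0243), from 1.73 in paw and -0.15 in DRG. This was 1 of 10 receptors, where 0.48% of the 16461 genes tested were called in that direction and 0.0182% in the other. It was not called when DRG control replicate 2 or 3, DRG day-6 replicate 1 or 2, or paw day-6 replicate 1 or 2 was left out. Nor was it called with a skeletal muscle score as covariate, where the difference was 1.70. Of all genes, 19 to 40 were still called in those left-out fits and 38 with the covariate, against 82 in the main fit. With the replicate number as a block within each tissue, 3 receptors and 106 of all genes were called. No fit treated same-numbered paw and DRG libraries as pairs. In control they correlated at 0.334 to 0.531, and different-numbered paw and DRG libraries at -0.479 to 0.41. Whether same-numbered libraries came from the same mice was not tested.

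For day 6 against day 1, the paw exceeded the DRG for 3 receptors, against 0.729% of genes, and 0 the other way, against 0.079%. The differences were 1.94 ± 0.34 for Tlr7 (edgeR, adjusted p = 0.0145), 2.11 ± 0.37 for Tlr9 (adjusted p = 0.0149) and 2.08 ± 0.39 for Tlr13 (adjusted p = 0.0204). Leaving out DRG day-6 replicate 2 or paw day-6 replicate 2 left 1 of these calls, and leaving out paw day-6 replicate 3 gave 5. Of all genes, 52, 51 and 270 were called in these fits, against 133 in the main fit. Against the spinal cord, tested over 15 libraries, the paw change of Tlr7 was larger by 1.96 ± 0.31 (edgeR, adjusted p = 0.0404), 1 of 10 receptors where 0.133% of the 16493 genes tested were called in that direction and 0.0243% in the other. Tlr8 was among these 10, at -0.16 ± 0.55, but its 0 to 5 counts per spinal cord library are too few to judge its change. The Tlr7 call was lost when any single library of those compared was left out, with the exception of paw day-6 replicate 3, and in the fit with the replicate number as a block. Of all genes, 0 to 15 were still called in the left-out fits that lost it and 8 with the block, against 26 in the main fit. The macrophage markers described below differed in the same direction: of 20, edgeR called 12 higher in paw than in DRG for day 6 against control, 14 for day 6 against day 1, and 6 against the spinal cord, and their part in the result was not tested. For day 1 against control, 0 receptors and 0% of genes differed between paw and DRG by edgeR, with 1 receptor, Tlr5, at an unadjusted p under 0.05 and 0 called by DESeq2, where 3.82% and 5.87% of genes reached that unadjusted p with the paw higher and lower.

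The order of the receptors was read from CPM divided by the exon length of each gene, since longer transcripts collect more reads. In control paw Tlr4 stood first with 3.47 ± 0.61 CPM per kb (SD over 3 libraries), above Tlr2 with 2.40 ± 0.13 and Tlr3 with 1.72 ± 0.19 CPM per kb. The ranges of these 3 did not overlap. Tlr3 and Tlr5, Tlr5 and Tlr13, and Tlr13 and Tlr7 were neighbours whose ranges overlapped, and Tlr8, Tlr1, Tlr6 and Tlr9 followed below 0.62 CPM per kb in every library. On day 6 the first 4 places went to Tlr2 with 4.55 ± 1.14, Tlr4 with 3.87 ± 1.15, Tlr7 with 3.57 ± 0.85 and Tlr13 with 3.26 ± 1.19 CPM per kb, each overlapping the next.

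In DRG and spinal cord Tlr3 was the first receptor in each group. It had 1.84 ± 0.15 CPM per kb in control DRG, with Tlr2 next at 0.86 ± 0.06, and 3.74 ± 0.26 CPM per kb in day-1 spinal cord, with Tlr2 next at 1.12 ± 0.23. Tlr3 and Tlr2 overlapped in DRG on day 1, where they had 2.37 ± 0.57 and 1.58 ± 0.45 CPM per kb. Tlr4, the first receptor of control paw, had 0.17 ± 0.06 CPM per kb in day-1 spinal cord and was eighth of the 10. Tlr8 was last in each DRG and spinal cord group. The tissues were normalised separately, so levels are compared here within a tissue.

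**Figure D3:**
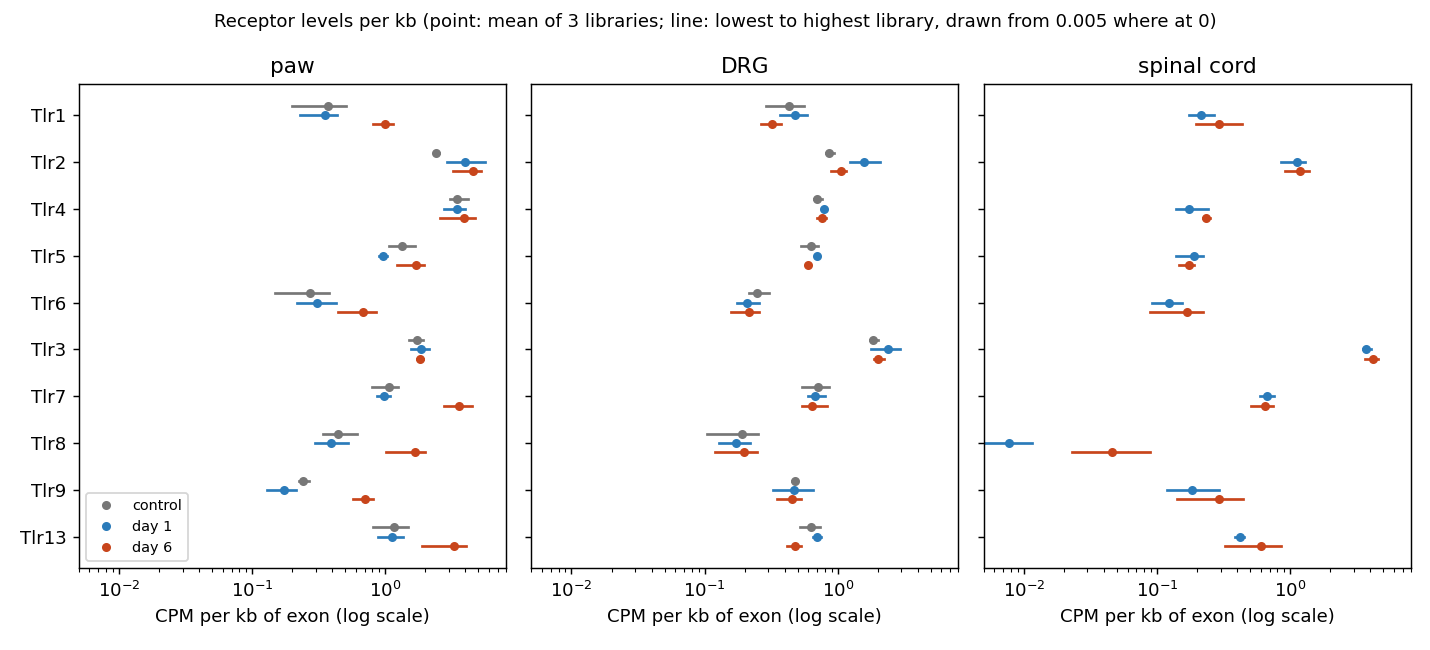
Levels of the 10 receptors per kilobase of exon in paw, DRG and spinal cord, on a logarithmic axis in CPM per kb. Points are means of 3 libraries and lines run from the lowest to the highest library. Tlr4 and Tlr2 lead in control paw, and Tlr3 leads in each DRG and spinal cord group.

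The balance of the family was summarised as the percentage of reads on the 10 receptors that fell on the 5 endosomal ones, which depends on no scaling between libraries. In paw it was 37.5%, 34.7% and 39.7% in control, 34.7%, 32.9% and 38.4% on day 1, and 48.0%, 48.3% and 49.9% on day 6. The 3 day-6 libraries were above the 6 others. Their 95% Clopper-Pearson intervals ran from 46.4% to 52.0% in all, and those of the control and day-1 libraries from 30.9% to 42.4%, which covers counting error only. The group means were 37.3% ± 2.5 (SD), 35.3% ± 2.81 and 48.7% ± 1.03, so the difference between day 6 and control was 11.4 percentage points, and it stayed between 10.1 and 12.6 with each library left out in turn.

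Tlr3 made up 16.2% ± 3.15 of the receptor reads in control paw and 10.3% ± 2.58 on day 6. Without it, the endosomal share was 25.2% ± 0.17 in control, 22.3% ± 1.79 on day 1 and 42.8% ± 0.50 on day 6. Tlr7 went from 7.88% ± 1.99 of the receptor reads in control to 15.4% ± 1.71 on day 6, and Tlr4 from 34.3% ± 3.53 to 22.3% ± 1.31. The summed level of the 5 surface receptors was 34.4, 39.9 and 31.1 CPM in control and 58.6, 54.9 and 34.2 CPM on day 6, which overlap, and that of the 5 endosomal receptors was 20.6, 21.2 and 20.5 CPM in control and 54.0, 51.3 and 34.1 CPM on day 6, which do not.

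In DRG the endosomal share stayed between 56.6% and 62.9% in the 9 libraries, with means of 59.6% ± 2.87 in control, 57.7% ± 1.33 on day 1 and 58.9% ± 1.10 on day 6. In the spinal cord it was 79.5% ± 3.42 on day 1 and 79.4% ± 3.13 on day 6, of which Tlr3 alone made up 62.7% ± 5.22 and 61.5% ± 8.09. In both tissues the groups overlapped.

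**Figure D4:**
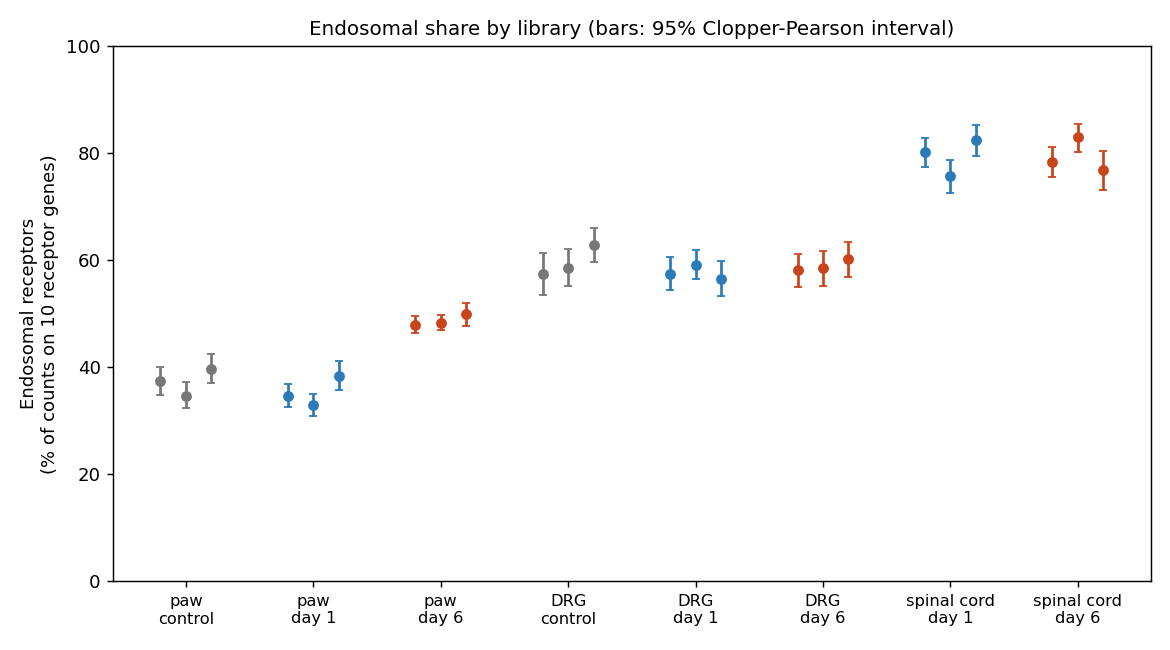
Percentage of the reads on the 10 receptor genes that fell on the 5 endosomal receptors, by library, with 95% Clopper-Pearson intervals for counting error. The day-6 paw libraries lie at 48.0% to 49.9%, above the other paw libraries at 32.9% to 39.7%, while the DRG groups overlap, as do the spinal cord groups.

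The genes that carry and process the endosomal receptors were described from a list of 16, of which 3 were called higher in paw on day 6 against control and 0 lower. The 3 were Unc93b1, the chaperone that brings nucleic acid receptors to the endosome, Ctss, a lysosomal protease that cleaves them, and Pld4, a lysosomal exonuclease that degrades single-stranded nucleic acids. Unc93b1 had 23.8, 28.3 and 23.1 CPM in control, 22.0, 31.4 and 20.04 CPM on day 1, and 72.2, 60.3 and 49.8 CPM on day 6, with the day-6 libraries above the rest. Its log2 fold change against control was 1.28 ± 0.20 (edgeR, adjusted p = 0.0314). Ctss rose by 1.57 ± 0.17 (adjusted p = 0.0147), from 42.9 to 59.7 CPM in control to 126.8 to 167.5 CPM on day 6. Pld4 rose by 2.18 ± 0.27 (adjusted p = 0.0147), from 6.16 to 7.82 CPM to 27.3 to 38.9 CPM. The same 3 genes were called on day 6 against day 1. The median log2 fold change of the 16 against control was 0.17. Over all genes tested, 0.667% were called higher and 0.0392% lower on day 6 against control, a background that also holds for the lists below.

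Of 6 co-receptors, 2 were called higher on day 6 against control, and they form 1 complex: Cd180, a relative of Tlr4, and Ly86, its partner. Cd180 had 1.25, 2.51 and 1.42 CPM in control and 11.4, 9.99 and 5.13 CPM on day 6, and it rose by 2.36 ± 0.41 on the log2 scale (edgeR, adjusted p = 0.0447). Ly86 had 3.22, 3.58 and 4.09 CPM in control and 16.2, 11.7 and 10.6 CPM on day 6, a log2 fold change of 1.82 ± 0.26 (adjusted p = 0.0257). Against day 1, Ly86 alone of the 6 was called. Cd14 and Ly96, which present lipopolysaccharide to Tlr4, had log2 fold changes against control of 0.42 ± 0.39 and -0.16 ± 0.21 and were not called (adjusted p = 0.842 and 0.901).

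Of 19 adaptors and kinases, 1 was called higher in each paw comparison of day 6 and 0 lower. It was Ticam2, the bridging adaptor between Tlr4 and Ticam1, with 1.65, 1.69 and 1.57 CPM in control and 5.35, 5.08 and 3.79 CPM on day 6, and it rose by 1.53 ± 0.23 on the log2 scale (edgeR, adjusted p = 0.0314). With 1 library left out it kept this call in 1 of 6 fits, with edgeR adjusted p of 0.0287 to 0.148. The locus of Ticam2 overlaps that of Tmed7 on the same strand. Whether their exons overlap was not checked, so the level of Ticam2 is uncertain. Myd88, the adaptor of the receptors here other than Tlr3, had 88.0, 54.4 and 41.8 CPM in control, 49.4, 39.0 and 43.1 CPM on day 1, and 47.6, 52.4 and 46.5 CPM on day 6, and was not called. Of 5 transcription factors, Irf5 was called higher on day 6 against control by 0.52 ± 0.08 (adjusted p = 0.0314), from 24.6 to 26.2 CPM to 35.0 to 38.2 CPM. The call of Irf5 was kept in 0 of 6 fits with a library left out, with edgeR adjusted p of 0.0560 to 0.170.

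Of 9 inhibitors of the pathway, 0 were called in paw by edgeR on day 6 against control, with 1 at an unadjusted p under 0.05 and 1 called by DESeq2. That gene was Pik3ap1, a signalling adaptor that restrains the receptors, with 2.82, 4.57 and 2.91 CPM in control and 8.67, 11.5 and 6.12 CPM on day 6 (edgeR, adjusted p = 0.0852). Of 13 output cytokines and enzymes, 9 were tested in paw and 0 called by edgeR on day 6 against control, with 3 at an unadjusted p under 0.05 and 2 called by DESeq2. Over all genes tested, 6.12% were higher and 3.62% lower at that unadjusted p. Il6 had 1.25, 3.37 and 0.35 CPM in control and 0.17, 0.20 and 0.06 CPM on day 6, and Cxcl1 had 12.1, 15.01 and 2.40 CPM in control and 0.89, 1.84 and 0.96 CPM on day 6. In DRG, Tnfaip3, which encodes the ubiquitin-editing inhibitor A20, was called lower on day 6 than on day 1 at -1.06 ± 0.16 on the log2 scale (edgeR, adjusted p = 0.0375). It had 8.60, 7.68 and 7.63 CPM in control, 16.9, 18.03 and 11.2 CPM on day 1, and 7.58, 7.80 and 6.78 CPM on day 6, and its value on day 1 against control had an adjusted p of 0.0515. It kept its call in 1 of 6 fits with a library left out, with adjusted p of 0.00188 to 0.207. It was the 1 gene of these pathway lists called within DRG or spinal cord.

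**Figure D5:**
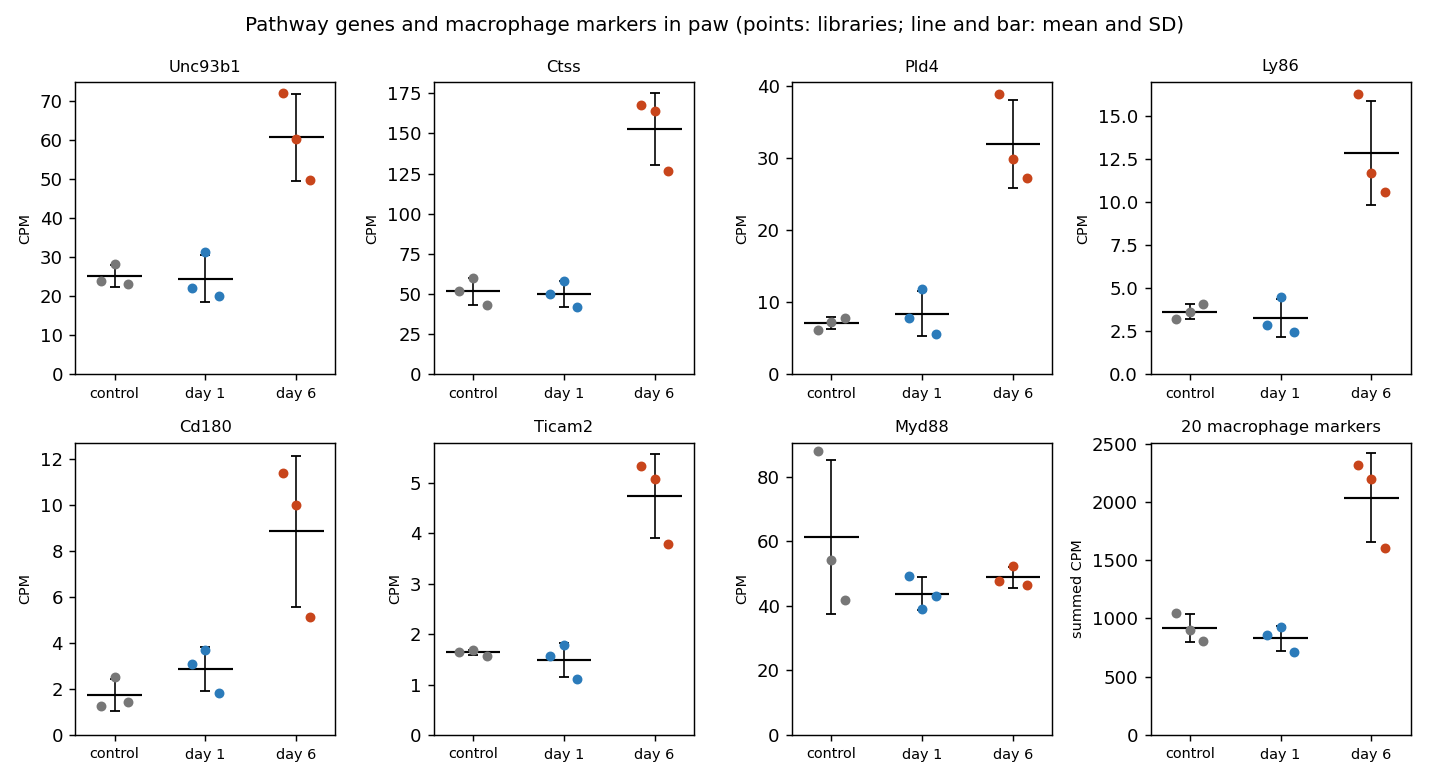
Levels of 7 pathway genes (CPM) and the summed level of 20 macrophage and monocyte markers (summed CPM) in the 9 paw libraries, on axes that start at 0. Points are libraries, lines are means and bars are SD. The day-6 libraries stand above the others in 7 panels, and those of Myd88 overlap the other groups.

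Macrophage markers moved with the receptors in paw. The 20 macrophage and monocyte genes, of which 0 were at 0 counts, summed to between 807.6 and 1043.7 CPM in control, between 714.0 and 923.9 CPM on day 1 and between 1603.1 and 2318.8 CPM on day 6. Day-6 replicate 3 was the lowest of its group for this sum and for each of the 10 receptors. Of the 20 genes, 13 were called higher on day 6 against control and 13 against day 1, and the median log2 fold changes were 1.36 and 1.58. Over all genes tested, 0.667% and 0.949% were called higher in these comparisons. Csf1r, the receptor that macrophages need for survival, went from a mean of 78.4 to 198.3 CPM between control and day 6, and Lyz2, lysozyme, from 133.2 to 499.6 CPM. In DRG the same list summed to between 329.0 and 406.1 CPM in the 9 libraries. By edgeR 1 gene, Mrc1, was called higher on day 1 against control and 1, C1qa, a complement component, lower on day 6 against day 1 (adjusted p = 0.0452). DESeq2 called 6 of the list on day 6 against day 1. Of all genes, DESeq2 called 106 there and edgeR 16. The part of the macrophage markers in the receptor levels was not tested.

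Markers of other cell types were measured in the same paw libraries. The summed levels of 9 dendritic cell genes were 26.1 to 30.8 CPM in control and 38.7 to 46.9 CPM on day 6, and 0 of the 7 tested were called by edgeR, with 3 at an unadjusted p under 0.05 and 3 called by DESeq2. The 8 T cell genes summed to between 4.44 and 7.11 CPM in control and between 9.64 and 10.8 CPM on day 6. Of the 5 tested, edgeR called 0 on day 6 against control, with 2 at an unadjusted p under 0.05, and 1 against day 1, Cd4 (adjusted p = 0.0334), with a list median of 1.47 on the log2 scale there, and DESeq2 called 2 in each comparison. The 6 microglia genes summed to between 123.8 and 164.2 CPM in control and between 175.8 and 208.7 CPM on day 6, and edgeR called 2 of them, Gpr34 and P2ry12, higher in both comparisons. The 7 B cell genes summed to between 2.08 and 2.67 CPM and between 2.35 and 2.92 CPM. The 9 neutrophil genes detected summed to 322.9, 400.8 and 46.3 CPM in control and to 25.9, 143.0 and 15.7 CPM on day 6. Their part in the receptor levels was not tested either.

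With 1 library left out, the number of trafficking genes called on day 6 against control was 0 to 3, that of co-receptors 0 to 2 and that of macrophage genes 0 to 14, and it was 0 in each of these lists without control replicate 2, control replicate 3, day-6 replicate 1 or day-6 replicate 2, the 4 fits in which 0 of all genes were called. Their log2 fold changes moved less, from 1.13 to 1.40 for Unc93b1 and from 2.02 to 2.28 for Pld4.

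The genes whose paw profile was most like that of a called receptor were found from the root mean square difference in centred log2 CPM over the 9 paw libraries, among 13853 genes. For Tlr7 they were Gpr34, Myo1f, Ptpro, Ly86 and Sash3, at differences of 0.18 to 0.20. Gpr34, a G protein-coupled receptor for a lysophospholipid that is also used as a microglia marker, had means of 6.82, 5.82 and 20.1 CPM in control, day 1 and day 6. For Tlr9 they were Slamf7, Cd48, Ms4a6c, Clec10a and Tnfaip8l2, at 0.18 to 0.24, and for Tlr8 they were Arl11, Ms4a6c, Lyz2, Folr2 and Mrc1, at 0.23 to 0.27. Lyz2 and Mrc1, the mannose receptor, also belong to the list of macrophage genes. These likenesses are a description of 9 libraries.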

How the data were processed

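RNA was sequenced from 24 libraries as 50-base single reads after a stranded mRNA preparation from about 500 ng of RNA, per the labels' protocols. For each library the authors deposited a table of raw counts by gene symbol. Reads were demultiplexed with bcl2fastq, aligned with TopHat2 to mm9 and counted with HTSeq, per the submitters' processing notes. Versions, the annotation and the strand setting are not given in the sources used here. The 5 summary lines of each file were removed. Reads in no feature, as a share of the reads assigned to a gene or not, were 31.5% in DRG control replicate 1. They were 13.1% to 13.8% in the other DRG libraries, 15.1% to 19.0% in paw and 14.8% to 17.3% in spinal cord.

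Counts were scaled by TMM and tested within each tissue with edgeR 4.0.16 (quasi-likelihood F test with robust dispersion, R 4.3.3), after edgeR's filter on low counts, with the 2 or 3 groups of the tissue in 1 fit. Differences between tissues were interaction terms in a fit over both. P-values were adjusted over all genes tested by the Benjamini-Hochberg method, and a gene was called at an adjusted p under 0.05. With 3 libraries against 3 an exact permutation test cannot go below 0.10, so none was used. DESeq2 1.42.0, limma 3.58.1, other scalings and filters and a skeletal muscle covariate were tried. So were the replicate number as a block within each tissue and leaving out each library. The edgeR procedure was tested on simulated data. None of the 24 pairs of replicates held identical counts.

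Exon lengths and positions came from GENCODE M21 (GRCm38), not from the annotation of the authors, so levels per kb are approximate. The members and lists, 215 symbols in all of which 2 were unmatched, were chosen with earlier results of these data known. The text names all members, up to 4 called genes of each pathway list (the 2 with the smallest p where none was called), Unc93b1, Myd88, Cd14 and Ly96, and the 5 genes most like each called member.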

Additional observations from a re-analysis of the deposited data

Results flagged for a closer look

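For 3 receptors the change between groups differed between tissues by a test of the difference itself, given on the log2 scale by edgeR. Tlr7 was higher on day 6 than in control by 1.88 more in paw than in DRG. Between day 1 and day 6 the paw exceeded the DRG by 1.94 for Tlr7, 2.11 for Tlr9 and 2.08 for Tlr13, and it exceeded the spinal cord by 1.96 for Tlr7. The comparisons share the paw libraries of day 6, and in paw day-6 replicate 3 the level of each of these 3 receptors was the lowest of its group.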

How the results depend on the processing

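Counts of receptors called moved as follows. For paw day 6 against control (2), DESeq2 gave 6, the fit of only the groups compared gave 0 and leaving out 1 library gave 0 to 4. For paw day 6 against day 1 (3), DESeq2 and limma voom each gave 6 and leaving out 1 library gave 0 to 4. For DRG day 1 against control (0), DESeq2 gave 1. For the difference between paw and DRG on day 6 against control (1), RLE factors, upper-quartile factors and no filter each gave 2, DESeq2 gave 4, the muscle covariate gave 0 and leaving out 1 library gave 0 to 3. For that on day 6 against day 1 (3), DESeq2 gave 6, limma voom 5 and leaving out 1 library 1 to 5. For paw against spinal cord (1), leaving out 1 library gave 0 to 1. The number of all genes called moved too. In paw on day 6 against control edgeR called 108 and DESeq2 509. Against day 1 edgeR called 157, DESeq2 737 and limma voom 705. For the paw and DRG difference on day 6 against control edgeR called 82, RLE factors 90, upper-quartile factors 106, no filter 92, DESeq2 234 and the muscle covariate 38. For that on day 6 against day 1 edgeR called 133, DESeq2 464 and limma voom 716.

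Same-numbered libraries were not treated as pairs in the main fits, since not every correlation between them was over 0.1. It was -0.642 to -0.0277 between paw control and day 6. Between paw and DRG it was 0.334 to 0.531 in control, -0.0578 to 0.269 on day 1 and 0.0300 to 0.161 on day 6. Different-numbered libraries correlated at up to 0.586 between paw control and day 6, and up to 0.41 between paw and DRG in control. The correlations therefore cannot decide pairing. With the replicate block, 2 receptors were called in paw on day 6 against control, 4 against day 1, 0 on day 1, 0 in each DRG comparison and 0 in spinal cord. The block, fitted within each tissue, gave 3 for the paw and DRG difference on day 6 against control and 5 on day 6 against day 1. It gave 0 on day 1 against control, and 0 for paw against spinal cord. Over all genes the block fit called 130 in paw on day 6 against control and 139 against day 1. It called 106 and 141 for the paw and DRG differences of day 6, and 8 for paw against spinal cord.

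Endosomal shares without Tlr3 differed from control by 17.7 percentage points on day 6 in paw, by 20.5 between day 6 and day 1, and in DRG by -4.77 on day 1 and -3.54 on day 6. The difference of mean log2 CPM, endosomal minus surface, differed between the spinal cord groups by 0.0710 on the log2 scale. With 1 library left out, the differences were -3.53 to -0.773 (paw day 1 against control), 10.1 to 12.6 (day 6 against control), 12.2 to 14.9 (day 6 against day 1), -2.99 to -0.254 (DRG day 1 against control), -1.83 to 0.910 (DRG day 6 against control), 0.539 to 1.88 (DRG day 6 against day 1) and -1.91 to 1.46 (spinal cord).

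Signs turned only where the unadjusted p was above 0.05. With 1 library left out, Tlr3 in paw on day 6 ranged from -0.00989 (without control replicate 2) to 0.152 against control and from -0.136 to 0.0738 (without day-1 replicate 2) against day 1, where upper-quartile factors gave 0.0173. Tlr4 ranged from -0.0120 to 0.384 against control and from -0.00561 to 0.390 against day 1, lowest without day-6 replicate 1 in both. The causes were not tested. The alternatives for the pathway and marker lists were chosen after seeing the data. Tlr8 in spinal cord, with 0 to 5 counts per library, was too shallow to test within that tissue.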

Other observations

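Tlr11, an endosomal receptor for profilin in mice that was not among the 10 members, had 0.16, 0.12 and 0.16 CPM in control paw, 0.03, 0.17 and 0.12 CPM on day 1, and 0.74, 0.66 and 0.37 CPM on day 6. Its day-6 libraries lay above the 6 others, and edgeR called it in neither comparison (log2 fold change against control 1.98 ± 0.51, adjusted p = 0.169), whereas DESeq2 called it on day 6 against day 1 and not against control. Its close relative Tlr12 stood at 0 to 0.157 CPM in the 9 paw libraries and was not tested there.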
